A study of Mus musculus with 7 samples.

Results

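The Musashi, neuronal Elavl, Igf2bp and Lin28 genes encode RNA-binding proteins, and 10 of them (Msi1, Msi2, Elavl2, Elavl3, Elavl4, Igf2bp1, Igf2bp2, Igf2bp3, Lin28a and Lin28b) were examined here among 21887 protein-coding genes. They were chosen by name as 4 gene families, with earlier results of these data in view. Msi2 is among them partly for its H3K27ac cluster and Igf2bp1 partly for its H3K27me3 peak, so those values are given as description only. The data are chromatin immunoprecipitation and sequencing (ChIP-seq) of histone H3 trimethylated at lysine 27 (H3K27me3, 2 libraries) and acetylated at lysine 27 (H3K27ac, 2 libraries), with 3 input libraries sequenced without antibody. All libraries came from olfactory epithelium of adult wild-type mice that had received methimazole, which destroys that epithelium, 7 to 10 days earlier, and no unlesioned group was analysed here. Cells of 3 mice were pooled for a replicate, and globose basal cells were enriched with an antibody to c-Kit and magnetic selection. The inputs have no peak list among those used here. According to the sample titles, a single input served for H3K27me3 replicate 1 and for H3K27ac replicate 2, and replicate numbers were therefore not treated as pairs.

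Globose basal cells are the dividing progenitors of the olfactory epithelium that rebuild its sensory neurons after a lesion. H3K27me3 is laid down by Polycomb complexes and is known from silent developmental genes, while H3K27ac is known from active promoters and enhancers. Musashi proteins bind the untranslated ends of mRNAs and regulate their translation in stem cells, and the neuronal Elavl (Hu) proteins stabilise AU-rich mRNAs in differentiating neurons. The Igf2bp proteins bind and protect mRNAs in embryonic tissues, and Lin28 proteins bind let-7 precursors and block their maturation into microRNAs.

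The promoter sequences below are shown because these start sites carried different combinations of the marks. Each runs from 250 bases before to 50 bases after a listed start, 5′ to 3′ on the minus strand, from RefSeq GRCm38.p6, with CpG dinucleotides in capitals. The Igf2bp3 start (chr6:49214905-49215204) had H3K27me3 and no H3K27ac. The Lin28b start (chr10:45470152-45470451) had H3K27me3 and no H3K27ac within 1 kb, but the printed sequence lay between H3K27me3 peaks and under none. The Elavl3 start (chr9:22051974-22052273) had both marks, and the most upstream Msi2 start (chr11:88718228-88718527) had H3K27ac. Of the 6 listed Elavl2 starts, the most upstream (chr4:91399935-91400234) had H3K27me3 alone and the most internal (chr4:91371991-91372290) had both within 1 kb. At the internal start the replicate 2 H3K27me3 peak, chr4:91371161-91371776, did not reach the printed sequence.
Igf2bp3: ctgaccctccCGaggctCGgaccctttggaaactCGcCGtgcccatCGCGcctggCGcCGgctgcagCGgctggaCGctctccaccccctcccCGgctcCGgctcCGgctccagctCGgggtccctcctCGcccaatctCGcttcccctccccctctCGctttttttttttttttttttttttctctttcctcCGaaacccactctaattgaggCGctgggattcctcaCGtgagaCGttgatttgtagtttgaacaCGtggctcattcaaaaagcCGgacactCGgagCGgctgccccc
Lin28b: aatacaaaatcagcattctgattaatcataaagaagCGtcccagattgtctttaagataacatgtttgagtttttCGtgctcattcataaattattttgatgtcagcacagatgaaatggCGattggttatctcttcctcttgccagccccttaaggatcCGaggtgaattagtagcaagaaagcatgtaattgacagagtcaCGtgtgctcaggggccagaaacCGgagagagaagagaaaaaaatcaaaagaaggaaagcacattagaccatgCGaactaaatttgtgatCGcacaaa
Elavl3: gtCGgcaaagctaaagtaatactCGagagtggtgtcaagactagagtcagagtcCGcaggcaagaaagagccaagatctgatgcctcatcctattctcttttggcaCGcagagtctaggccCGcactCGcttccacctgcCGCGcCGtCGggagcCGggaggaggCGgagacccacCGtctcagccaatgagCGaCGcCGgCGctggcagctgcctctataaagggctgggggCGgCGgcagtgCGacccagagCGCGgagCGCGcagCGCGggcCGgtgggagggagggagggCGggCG
Msi2: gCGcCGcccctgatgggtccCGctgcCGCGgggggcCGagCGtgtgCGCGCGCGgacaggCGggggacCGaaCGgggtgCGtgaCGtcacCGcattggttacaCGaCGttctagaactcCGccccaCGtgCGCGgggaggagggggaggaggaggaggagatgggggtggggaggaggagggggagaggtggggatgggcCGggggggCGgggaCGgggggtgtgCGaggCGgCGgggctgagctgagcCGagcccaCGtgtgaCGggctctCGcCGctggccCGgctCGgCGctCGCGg
Elavl2 upstream: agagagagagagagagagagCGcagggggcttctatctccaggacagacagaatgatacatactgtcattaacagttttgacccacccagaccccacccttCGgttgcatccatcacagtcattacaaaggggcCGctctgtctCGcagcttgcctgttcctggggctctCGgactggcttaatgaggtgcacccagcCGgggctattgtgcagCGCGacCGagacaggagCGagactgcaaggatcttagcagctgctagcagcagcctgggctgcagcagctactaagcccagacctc
Elavl2 internal: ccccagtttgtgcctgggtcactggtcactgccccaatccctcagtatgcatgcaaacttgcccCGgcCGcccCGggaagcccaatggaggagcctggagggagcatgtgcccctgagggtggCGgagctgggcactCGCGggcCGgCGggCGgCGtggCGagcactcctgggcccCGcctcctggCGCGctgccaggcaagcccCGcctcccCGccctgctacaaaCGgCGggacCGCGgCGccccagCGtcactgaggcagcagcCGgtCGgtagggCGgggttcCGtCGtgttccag

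The letters of these promoters varied widely. Over all 32851 listed promoters the median GC content was 52.7% and the median number of CpG was 7. The Igf2bp2 promoter held 47 CpG and the first Msi2 promoter 39, with GC contents of 76.7% and 76.3%. Elavl3 held 29 CpG, Igf2bp3 25 and the upstream Elavl4 start 23, all above the median. The Lin28b promoter was AT-rich, with a GC content of 39.0% and 8 CpG, and Lin28a held 10 CpG at a GC content of 63.3%. The 2 Elavl2 starts printed above differed in the same gene, with 10 CpG upstream and 27 at the internal start. The observed over expected CpG ratio corrects the count for base composition. Taking the highest ratio among each gene's listed starts, it was at least 0.8 at Msi2, Elavl3, Elavl4, Igf2bp2 and Igf2bp3, between 0.6 and 0.8 at Elavl2 and Lin28b, and below 0.4 at Lin28a. Among all genes with a ratio of at least 0.8, 21.0% carried H3K27me3 and 94.9% carried H3K27ac within 1 kb of a start in both libraries. Igf2bp3 belongs to that class by its letters and had no H3K27ac at its start. The motif CACGTG, searched on both strands, occurs in 7.15% of promoters. The windows of Igf2bp3 and Msi2 each held 2 copies and that of Lin28b held 1. The Msi2 windows overlap each other. Those of Elavl2, Elavl3, Elavl4, Igf2bp2 and Lin28a held none. Other motifs were also counted and are not given here. A match of letters shows no binding.

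The authors called 95749 and 65172 peaks in H3K27me3 replicates 1 and 2, and 77680 and 64279 peaks in H3K27ac replicates 1 and 2. A fold given below is the linear enrichment ratio that the authors assigned to a peak, and folds are ranked only within a library. The median peak had a fold enrichment of 3.46 and 3.21 in the H3K27me3 libraries and of 3.61 and 3.43 in the H3K27ac libraries. A −log10 q of 5 or more was reached by 5.89% and 2.34% of the H3K27me3 peaks and by 31.1% and 18.8% of the H3K27ac peaks. No read totals were given, so depth is unknown and a missing peak means only that none passed the authors' threshold. Folds and peak numbers are given per library, shared lengths and counts of marked genes require both libraries of a mark, and no test was made, because 2 labelled libraries a mark allow no exact two-sided p below 0.333. The cell label was set against marker genes by the same rule of a peak in both libraries within 1 kb of a start, which 26.7% of all genes met for H3K27me3 and 61.5% for H3K27ac. Of 6 markers of globose basal cells, 5 carried H3K27me3 and all 6 carried H3K27ac at a start, among them Kit, whose H3K27me3 folds were 5.11 and 3.41 and whose H3K27ac folds were 6.80 and 4.39. Of 4 mature neuron markers, 1 carried H3K27me3 and 3 carried H3K27ac. Among those 3, Omp had H3K27ac folds of 6.18 and 4.18, Cnga2 4.86 and 3.19, and Adcy3 7.02 and 5.40. Among horizontal basal cell markers, Trp63 had no peak at its start in any library, while H3K27ac folds were 8.17 and 4.96 at Icam1 and 2.89 and 3.32 at Krt14. Among leukocyte markers, Ptprc had no peak at its start, while Cd68 had H3K27ac folds of 10.7 and 6.11. Kit is also known from mast cells and melanocytes. Of 4 mast cell markers 1 carried H3K27me3 and 1 carried H3K27ac, and of 4 melanocyte markers 1 carried H3K27me3 and 2 carried H3K27ac. The counts were 4 and 2 of 5 horizontal basal cell markers, 1 and 3 of 3 sustentacular markers, and 0 and 1 of 4 leukocyte markers, in the same order of marks. Both marks could lie in the same cells or in different cells of each pool, and these cannot be told apart in bulk chromatin.

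In both libraries, 9 of the 10 genes had H3K27me3 within 1 kb of a start, or of either gene end if none is listed. The same rule was met by 26.7% of all protein-coding genes. H3K27ac met it at 5 of the 10 genes, against 61.5% of all genes. The genes separated into Elavl2, Elavl3, Elavl4 and Igf2bp2 with both marks, Msi1, Igf2bp1, Igf2bp3, Lin28a and Lin28b with H3K27me3 alone, and Msi2 with H3K27ac alone. Both marks were present at 16.3% of all genes, H3K27me3 alone at 10.3%, and neither mark at 28.2%. The tables used here list a start for 8 of the 10 genes. For Msi1 and Igf2bp1 either annotated gene end was taken, so a peak there need not lie at the start. At Msi1 only the upper end had peaks, of H3K27me3 at 3.29 and 2.82, and the lower end had none. Over the 8 genes with a listed start, 7 carried H3K27me3 and 5 carried H3K27ac, while over the 17492 genes with a listed start the shares were 24.8% and 61.4%. Counts of H3K27me3 depend on weak peaks: with a −log10 q of at least 5, H3K27me3 remained at the starts of Igf2bp1, Igf2bp3 and Lin28a, and no start carried both marks. At that threshold 4.35% of all genes carried H3K27me3 and 0.384% carried both marks.

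**Figure D1:**
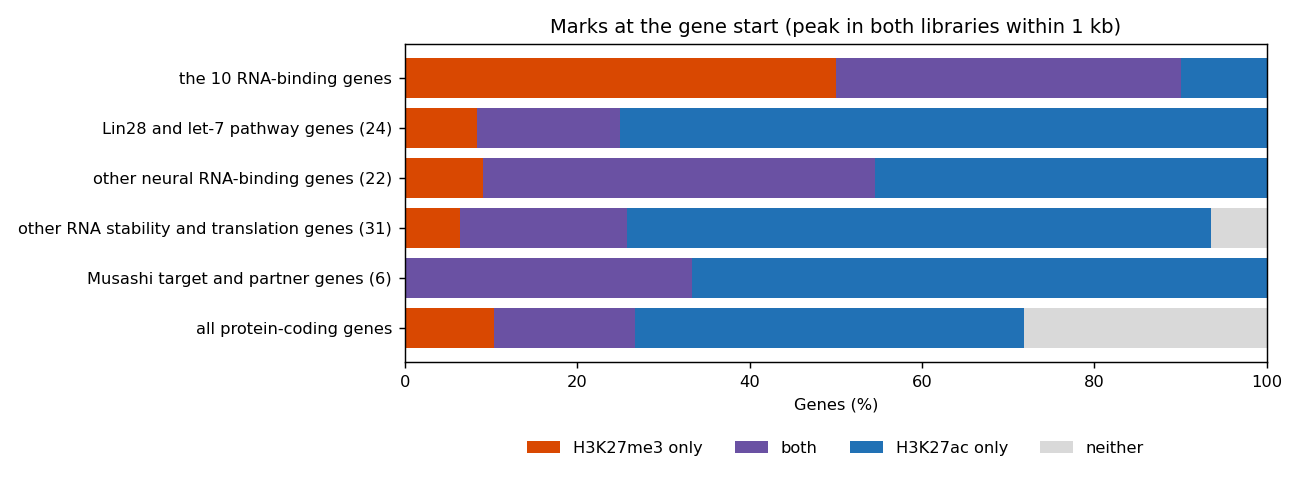
Share of genes (x axis, percent) in each of 4 classes by the marks within 1 kb of the gene start in both libraries, for the 10 RNA-binding genes, 4 lists of related genes with the number of genes in parentheses, and all protein-coding genes. With either annotated gene end taken for Msi1 and Igf2bp1, H3K27me3 is present at 9 of the 10 genes. H3K27ac alone is the most frequent class in all genes, at 45.2%.

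Over the whole gene window, which is the gene body with 10 kb on each side, H3K27me3 was shared by both libraries at 9 of the 10 genes, against 45.2% of all genes. H3K27ac was shared at 8 of the 10, against 70.9% of all genes, and at Lin28a the shared peak lies at the neighbouring gene Dhdds. The median of the highest H3K27me3 fold enrichment was 6.77 in replicate 1 and 4.52 in replicate 2 over the 10 genes, against 3.59 and 2.97 over all genes. For H3K27ac the same medians were 9.53 and 6.66 over the 10 genes, against 7.23 and 5.55 over all genes. The windows of the 10 genes ran from 35.9 kb at Lin28a to 399 kb at Msi2, and all genes were not matched to them in length. A longer window can hold more peaks, which limits these comparisons of presence and highest fold. Within 1 kb of a start the H3K27ac medians were 4.76 and 2.11 over the 10 genes, against 5.43 and 4.32 over all genes. These lower medians depend on Msi1 and Igf2bp1, which have no listed start and no H3K27ac peak at either gene end. Msi2, Elavl3, Elavl4 and Igf2bp2 lay above the all-gene median at a listed start in both libraries, and Elavl2 in replicate 1 only. Igf2bp3, Lin28a and Lin28b lay below it in both. The share of the window covered in both libraries had a median of 3.55% for H3K27me3 and 2.24% for H3K27ac over the 10 genes, against 0% and 2.91% over all genes. In single libraries the median share for H3K27me3 was 4.41% and 6.44% over the 10 genes, against 2.12% and 0.766% over all genes. For H3K27ac it was 4.75% and 2.87% over the 10 genes, against 5.04% and 4.09% over all genes. These medians hide a wide spread, since the covered share ran from 0% to 58.8% for H3K27me3 and from 0% to 53.0% for H3K27ac.

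**Figure D2:**
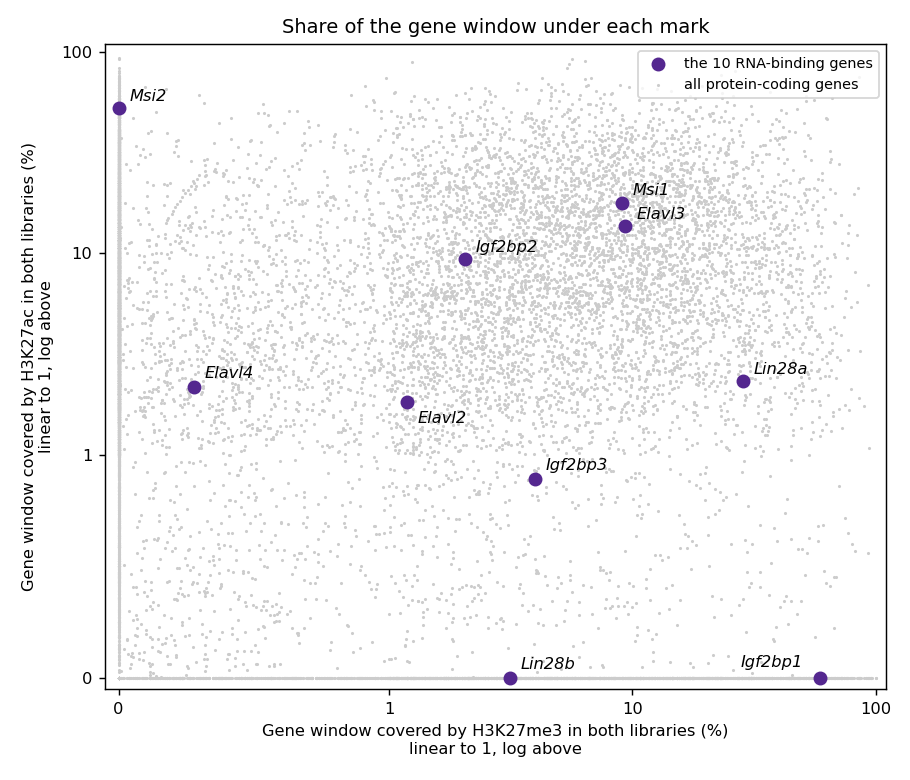
Share of the gene window covered by H3K27me3 (x axis, percent) and by H3K27ac (y axis, percent) in both libraries of each mark, on axes linear up to 1 and logarithmic above. Purple points are the 10 RNA-binding genes and grey points all protein-coding genes; Igf2bp1 lies at 58.8% H3K27me3 and 0% H3K27ac, and Msi2 at 0% and 53.0%.

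The Musashi genes differed from each other. Msi2, on chr11:88339382-88718306, had 12 and 2 H3K27me3 peaks, with highest folds of 3.34 and 3.29, and no base under H3K27me3 in both libraries. At the starts there was a weak H3K27me3 peak of 2.66 in replicate 1 and none in replicate 2. Its H3K27ac peaks numbered 75 and 67. They covered 69.1% and 58.6% of the window. The 2 H3K27ac libraries shared 211307 bases there, in 74 regions, the largest shared length of any protein-coding gene. Part of that rank follows gene length: by the share of the window Msi2 ranked 193. When shared H3K27ac regions no more than 12 kb apart were joined, Msi2 lay in a cluster of 374 kb, chr11:88354679-88728303, the longest of 20574. The strongest H3K27ac peak in each library covered the 3 listed starts (chr11:88714509-88719177 and chr11:88714515-88719210), with folds of 15.7 and 12.8. In both libraries the next strongest peak lay inside the gene, 128 and 132 kb from its upper end, with folds of 8.17 and 7.95. The median fold of all Msi2 peaks was 3.71 and 3.49, close to the medians of the libraries. Their median length of 2190 and 2200 bp exceeded the library medians of 868 and 863 bp. The longest stretch in both libraries, 29.4 kb, lay from 46.3 to 75.7 kb inside the gene. With the gene divided into 10 segments of equal length, coverage was highest in the second segment from the start, at 95.3% and 97.2%, and lowest in the last, at 39.5% and 31.7%.

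Msi1, on chr5:115359059-115455698, carried both marks inside the gene. H3K27me3 had 27 and 14 peaks, covering 27.6% and 13.5% of the window, and H3K27ac had 12 and 10 peaks, covering 24.2% and 19.7%. Its highest H3K27me3 folds were 4.99 and 4.55, in different places in the 2 libraries, and its highest H3K27ac folds were 10.6 and 7.00. Both H3K27ac maxima belonged to a single broad region shared over 14.1 kb, chr5:115427337-115441461, inside the gene and 14.2 kb from its upper end. The bases under both marks in all 4 libraries came to 7537 at Msi1, more than at any other of the 10 genes. They made up 71.3% of its shared H3K27me3 and 36.1% of its shared H3K27ac. The longest stretch under both marks, chr5:115432682-115436341, lay inside that H3K27ac region. Without a listed start, the place of this region relative to the Msi1 start is not given here, and the class of H3K27me3 alone rests on weak peaks at the upper end of the gene, of 3.29 and 2.82. No Msi1 H3K27me3 peak had a −log10 q of at least 5 in either library.

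**Figure D3:**
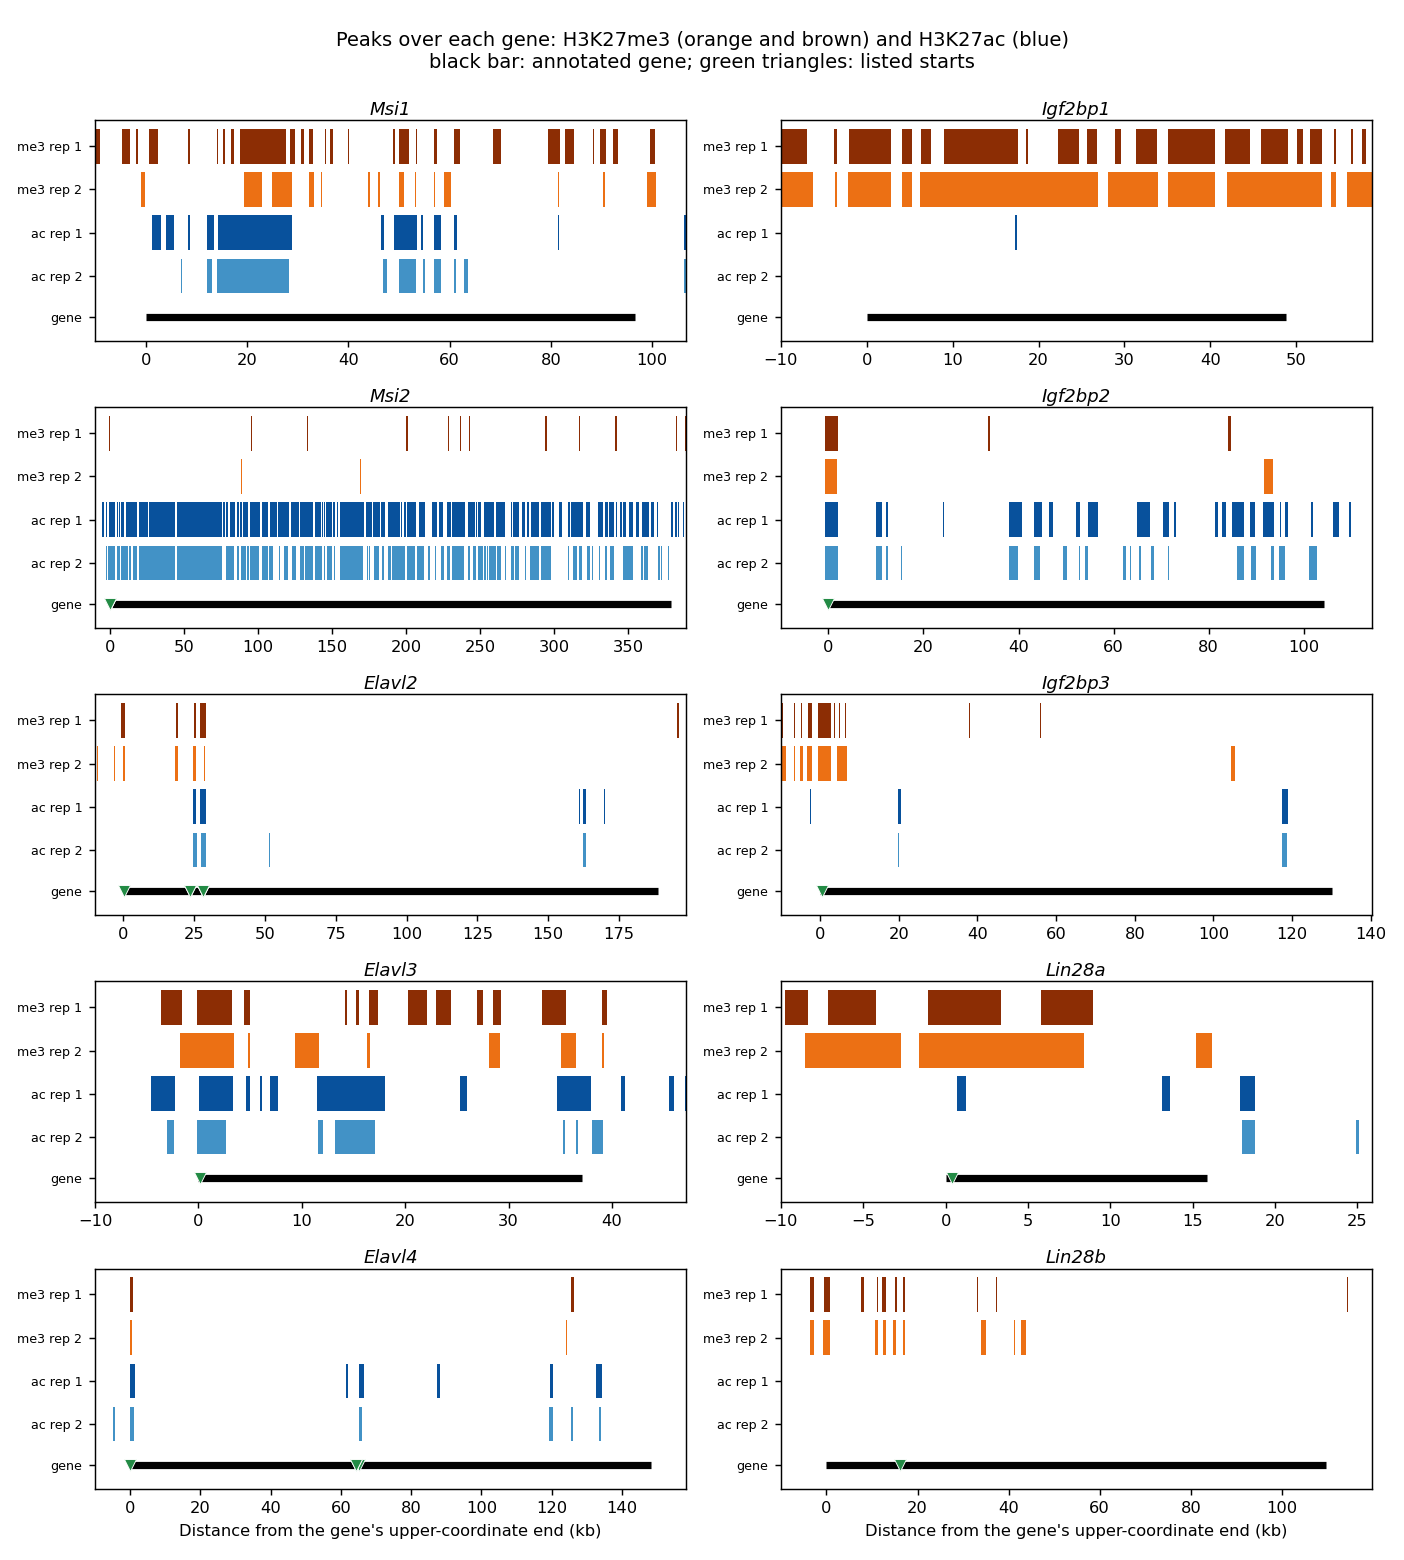
Peaks of each library (rows; H3K27me3 replicates 1 and 2 above H3K27ac replicates 1 and 2) over the 10 genes with 10 kb flanks, against the distance in kb from the upper-coordinate end of the gene. Black bars are annotated genes and green triangles listed starts; blue H3K27ac blocks fill most of Msi2, H3K27me3 blocks fill most of Igf2bp1, and the H3K27ac rows of Lin28b are empty.

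The 3 neuronal Elavl genes carried both marks at a start. Elavl3, on chr9:22015005-22052146, had H3K27me3 folds of 7.01 and 4.24 and H3K27ac folds of 13.5 and 6.32 at its start. The H3K27me3 peaks there were chr9:22048913-22052294 and chr9:22048749-22053971, and the H3K27ac peaks were chr9:22048815-22052056 and chr9:22049490-22052254. All 4 covered the start, and 2902 bases of the Elavl3 window lay under both marks in all libraries. Elavl4, on chr4:110203737-110351939, had H3K27me3 folds of 4.74 and 3.23 and H3K27ac folds of 14.0 and 5.59 at its upstream start. Its shared H3K27me3 was short, at 470 bases, all of it also under H3K27ac, of which it was 12.9%. The 3 internal Elavl4 starts had no H3K27me3 peak within 1 kb, and had H3K27ac folds of 5.06 and 4.28.

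Elavl2, on chr4:91211533-91400108, showed different marks within 1 kb of different starts. The most upstream start had H3K27me3 folds of 6.53 and 4.50 and no H3K27ac peak. The next starts, 23.5 kb into the gene, had no H3K27me3 peak within 1 kb. H3K27ac peaks of 4.98 and 3.83 reached only 58 to 136 bp into that window and did not cover these starts. Just outside the window, chr4:91374437-91375213 lay under both marks in all 4 libraries, so these starts are not separated from a region with both marks. Within 1 kb of the 3 most internal starts H3K27me3 folds were 6.12 and 3.58 and H3K27ac folds 6.44 and 4.22. The replicate 2 H3K27me3 peak there did not cover these starts. Libraries were matched by number here only for description. In the replicate 1 libraries the H3K27me3 and H3K27ac peaks at the internal starts had nearly the same borders, 2 and 55 bp apart at the lower and upper edge. In the replicate 2 libraries the borders were 190 and 841 bp apart. Elavl1, which encodes the ubiquitous HuR protein, is the family member outside the neuronal group. Its window had no H3K27me3 peak in either library. H3K27ac at its start had folds of 18.0 and 8.77, in a peak that also reaches an end of Ccl25. Mature neuron markers carried H3K27ac in the same libraries, with the values given above, and the part of neurons in the H3K27ac of the Elavl genes was not tested.

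The Igf2bp genes had 3 different patterns. Igf2bp1, on chr11:95957163-96005944, had H3K27me3 peaks of 16.4 and 9.82 at its upper end, chr11:96003173-96008021 and chr11:96003162-96008165. They ranked 34 of 95749 and 57 of 65172 peaks. H3K27me3 covered 59.4% and 82.4% of the window. The shared length was 40469 bases, which ranked 100 of all genes by length and 204 by share. H3K27ac had 1 peak in the window, of 2.88 in replicate 1, and none in replicate 2. Along the gene, H3K27me3 covered from 39.3% to 100% of each of 10 equal segments in replicate 1 and from 72.6% to 100% in replicate 2. When shared H3K27me3 regions no more than 3 kb apart were joined, 3 clusters of 45.3, 22.6 and 20.0 kb lay over the gene and beyond it. The microRNA gene Mir3063 lies inside Igf2bp1, under H3K27me3 peaks of 5.85 and 4.26. The 3 genes closest to Igf2bp1 over the 4 within-library percentiles of the highest fold in the window were Onecut1, Hoxa5 and Nkx2-4, at Euclidean distances of 0.183, 0.525 and 0.624 percentile points. These 3 genes encode homeodomain transcription factors. The ranking uses the H3K27me3 peak for which Igf2bp1 was partly chosen, so it is description only. The 3 closest to Msi2 were Rpl5, Zfp523 and Coa8, at distances of 2.89, 3.97 and 4.19.

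**Figure D4:**
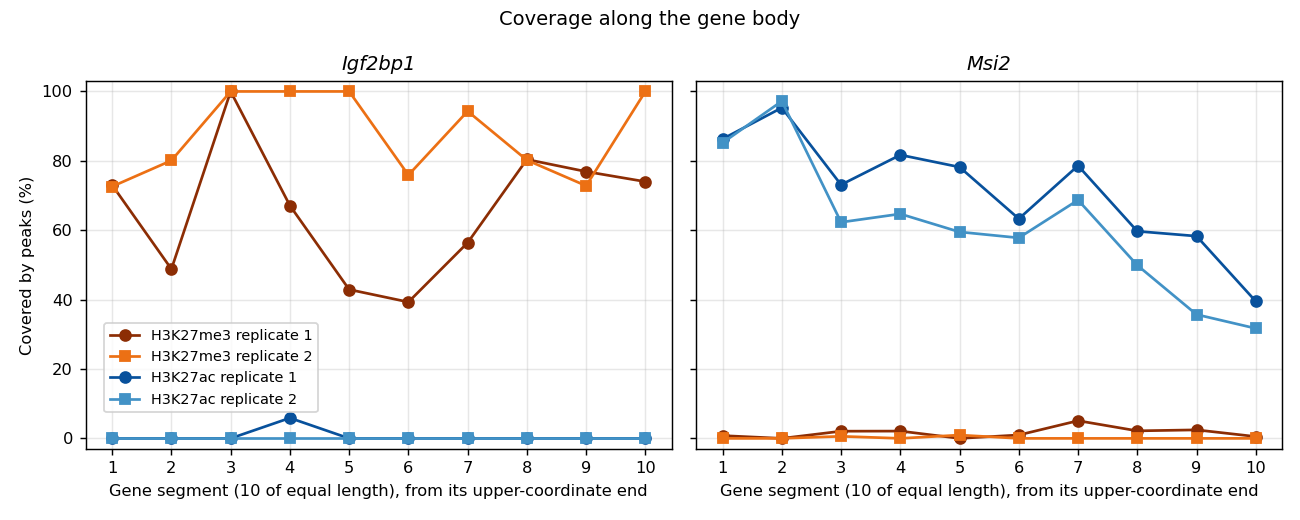
Share of each of 10 equal gene segments covered by peaks (y axis, percent) in the 4 libraries, for Igf2bp1 and Msi2, with segments counted from the upper-coordinate end (x axis). H3K27me3 covers at least 39.3% of every segment of Igf2bp1, and H3K27ac at Msi2 is highest in the second segment, at 95.3% and 97.2%, and lowest in the last, at 39.5% and 31.7%.

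Igf2bp3, on chr6:49085218-49215469, had H3K27me3 folds of 14.4 and 9.64 at its start and no H3K27ac there. Its strongest H3K27me3 peak in replicate 1, of 16.5, lay 2.49 kb upstream of the start at chr6:49217444-49218517, and in replicate 2 it covered the start at chr6:49212809-49216049. These ranked 33 and 65 in their libraries. The 5947 shared H3K27me3 bases of the window all fell in a joined cluster of 18.5 kb that spanned the start, with none deeper in the gene. H3K27ac away from the ends of other genes reached 4.88 in replicate 1, 117 kb downstream, and 3.21 in replicate 2. A replicate 2 peak of 13.5 in the window lies at an end of the neighbouring gene Malsu1. Igf2bp2, on chr16:22059009-22163299, had H3K27me3 folds of 4.96 and 3.57 and H3K27ac folds of 10.5 and 9.37, all at its start. The strongest peak of each of the 4 libraries occupied nearly the same interval over the start. With libraries matched by number only for description, the edges of the marks were 11 and 17 bp apart in replicate 1 and 110 and 27 bp in replicate 2. Of the 2547 shared H3K27me3 bases at Igf2bp2, 2530 were also under H3K27ac. H3K27ac continued into the gene, with 22 and 19 peaks covering 21.8% and 13.8% of the window.

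**Figure D5:**
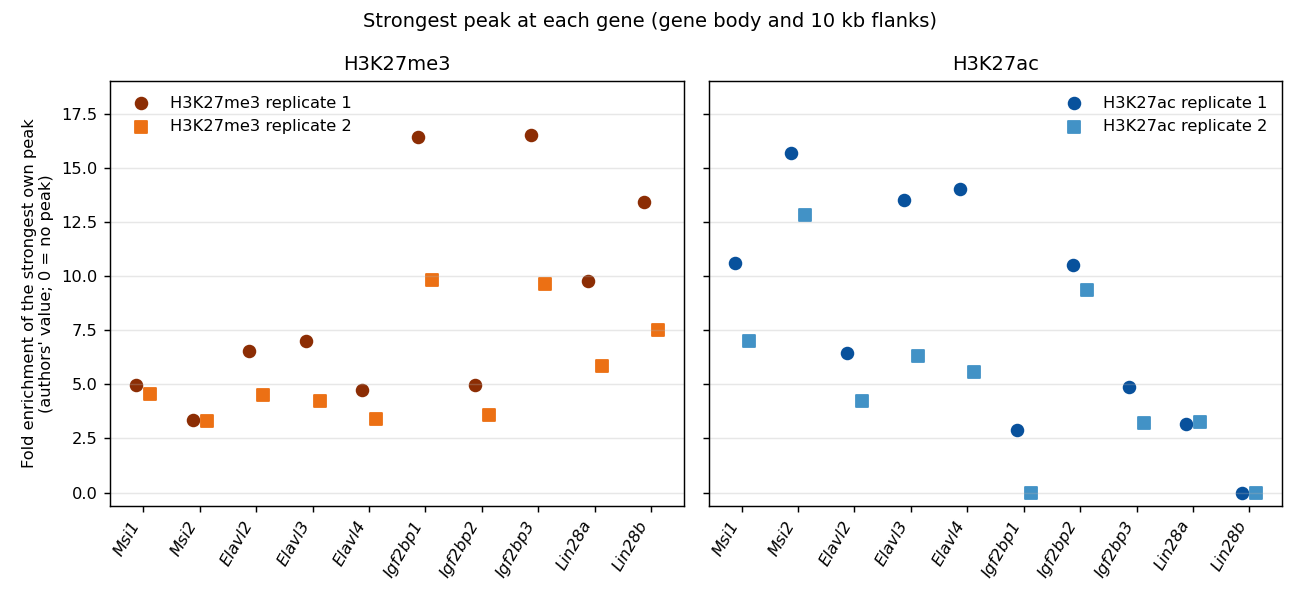
Fold enrichment of the strongest peak (y axis, the authors' ratio) in each library for the 10 genes, over the gene body with 10 kb flanks and away from ends of other genes, with H3K27me3 on the left and H3K27ac on the right; 0 marks a gene without a peak. Igf2bp1, Igf2bp3, Lin28a and Lin28b are highest for H3K27me3 in both libraries, and Msi2 is highest for H3K27ac in both libraries, at 15.7 and 12.8.

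Both Lin28 genes carried H3K27me3 and almost no H3K27ac of their own. Lin28a, on chr4:134003330-134019196, had H3K27me3 folds of 9.79 and 5.83 over its start, in peaks at chr4:134015838-134020276 and chr4:134010781-134020834. H3K27me3 covered 33.2% and 47.1% of the window. H3K27ac near the start was a weak peak of 3.09 in replicate 1 and none in replicate 2. Stronger H3K27ac peaks in the window, of 8.57 and 9.22, lie at an end of the neighbouring gene Dhdds. Away from it the highest H3K27ac folds were 3.16 and 3.24. Lin28b, on chr10:45376617-45486314, had no H3K27ac peak in its window in either library. Its strongest H3K27me3 peaks, of 13.4 and 7.51, ranked 126 and 250 and covered the upper end of the gene (chr10:45485532-45486954 and chr10:45485536-45487111). The listed start lies 15.3 kb downstream of these peaks, with H3K27me3 of 6.75 and 5.26 within 1 kb. The listed base itself lay under no peak.

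Where both marks were present they overlapped to different extents. Over the 10 windows, 82.1 kb lay under H3K27me3 in both libraries and 261 kb under H3K27ac in both. The overlap of all 4 libraries was 14832 bases, or 18.1% of the H3K27me3 and 5.68% of the H3K27ac. Msi2 supplied 211307 bases of that H3K27ac and Igf2bp1 40469 bases of that H3K27me3, with no overlap at either gene. Both were partly chosen for these marks, which lowers the 2 percentages, so they are description only. Over all chromosomes, which include sequence outside gene windows, the overlap was 11.5% of the shared H3K27me3 and 8.89% of the shared H3K27ac. H3K27me3 replicate 2 and H3K27ac replicate 1, which share no input by the labels, overlapped over 22635 bases. H3K27me3 replicate 1 and H3K27ac replicate 2, which share one, overlapped over 30401 bases. Without H3K27me3 replicate 2 the overlap was 29203 bases, and with a −log10 q of at least 5 it was 0. Msi1 held most of the overlap, followed by Elavl3 with 2902, Igf2bp2 with 2530, Elavl2 with 1393 and Elavl4 with 470 bases. The remaining 5 genes had none in all 4 libraries.

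The pathway of Lin28 and let-7 was described with a list of 24 genes for microRNA processing and known let-7 targets. H3K27me3 was found at the starts of 6 of the 24, near the share of 26.7% among all genes, and H3K27ac at the starts of 22, against 61.5% of all genes. Genes with H3K27me3 alone were Trim71, which encodes a stem cell ubiquitin ligase and let-7 target, at 14.6 and 6.72, and the growth factor gene Igf2, at 8.84 and 6.09. The third highest for H3K27me3 was Mycn, a transcription factor gene, at 6.50 and 4.94, with H3K27ac at 4.37 and 3.04. Highest for H3K27ac were Syncrip, an mRNA-binding protein gene, at 26.8 and 15.1, Tut7, which encodes an enzyme that uridylates let-7 precursors, at 18.5 and 13.1, and the receptor gene Igf1r, at 16.6 and 12.3. Genes of this list with both marks were Tut4, Hmga2, Myc and Mycn, of which the first 3 are named because the count is small, after their values were seen.

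Lin28 proteins hold back the maturation of let-7 microRNAs. Mature sequences of 3 of them, from RefSeq GRCm38.p6, are shown with the seed, bases 2 to 8, in capitals. The table lists let-7a-5p for Mirlet7a-1 and let-7i-5p for Mirlet7i, which had H3K27ac within 10 kb in both libraries, and miR-98-5p for Mir98, which had none.
let-7a-5p: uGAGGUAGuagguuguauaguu
let-7i-5p: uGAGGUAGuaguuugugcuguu
miR-98-5p: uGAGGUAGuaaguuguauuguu

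The seed GAGGUAG was the same in the 11 of 12 let-7 family genes for which a 5p sequence is in the table. Within 10 kb of these 12 genes, H3K27ac was shared by both libraries at 9 and H3K27me3 at 1, Mirlet7b. Among protein-coding genes, whose windows are longer, the shares were 70.9% and 45.2%, so the H3K27ac count is near the background. Mirlet7i lay under the strongest H3K27ac peak of the family, at 29.8 and 15.6. The neighbouring Mirlet7a-1, Mirlet7d and Mirlet7f-1 share a peak of 16.3 and 13.0 within 10 kb, which lies over none of their mature sequences. Mirlet7b had H3K27me3 folds of 3.51 and 2.78 and H3K27ac folds of 5.24 and 4.88, the latter in a peak shared with Mirlet7c-2. The H3K27ac count of 9 therefore includes some peaks more than once. Mirlet7a-2, Mirlet7f-2 and Mir98 had neither mark in both libraries.

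The other lists of RNA-binding genes are set beside the shares of all genes at a start, 26.7% for H3K27me3, 61.5% for H3K27ac and 16.3% for both. Of 22 other neural RNA-binding genes, 12 carried H3K27me3, 20 carried H3K27ac and 10 carried both. Highest for H3K27me3 were Celf4, at 7.41 and 5.38, Rbfox1, at 5.68 and 5.20, and Celf5, at 6.94 and 5.11, all of which encode splicing or mRNA regulators of neurons. Highest for H3K27ac were the splicing regulator genes Ptbp3, at 25.1 and 16.5, Ptbp2, at 16.9 and 15.6, and Mbnl1, at 18.5 and 11.0. Of 31 genes for RNA stability and translation, 8 carried H3K27me3, near the share of all genes, and 27 carried H3K27ac. The H3K27me3 values were led by Zfp36l2, at 6.55 and 5.05, and Zfp36l1, at 5.46 and 4.73, which encode proteins that destabilise AU-rich mRNAs, and by Cpeb1, a translation regulator gene, at 7.76 and 4.56. Among the highest H3K27ac values were those of Tia1, at 20.3 and 18.1, and Caprin1, at 24.5 and 16.0. All 6 Musashi target and partner genes carried H3K27ac. Numb, the classical Musashi target, had folds of 13.8 and 11.7, Pabpc1 16.5 and 10.5, and Cdkn1a 13.0 and 7.20. H3K27me3 was also present at Notch1, with 4.45 and 3.71, and at Cdkn1a, with 4.55 and 3.64.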

How the data were processed

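ChIP-seq peak lists of 2 H3K27me3 and 2 H3K27ac libraries were analysed. The submitters' processing notes name MACS2, Bowtie, fastp and Picard, without versions, and the genome build GRCm38 (mm10). Each deposited list gives, for every peak, a score, a fold enrichment (a linear ratio), and a −log10 p and −log10 q. The score equals 10 times the −log10 q in at least 99.99% of peaks, and the smallest −log10 q lay near 1, a q of 0.1. Each library has a list of its own.

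From these lists, peaks overlapping a gene body with 10 kb flanks, or 1 kb on each side of a gene start, by at least 1 bp were counted with Python 3.11.15, NumPy 2.4.6 and pandas 2.3.3. Figures were drawn with matplotlib 3.10.9. Genes, promoters and microRNAs came from RefSeq tables of GRCm38.p6, without a genome. Where no start is listed (Msi1, Igf2bp1), either gene end counted. Interval arithmetic was checked on simulated data. Groups were taken from sample titles. The genes, lists and alternatives were chosen with earlier results of these data known. All 10 genes and Elavl1 are named, and from each list the 3 genes with the highest values of each mark, ranked by the lower library, except 1 gene that is not reported here. Described without tests were counts, coverage, overlap and fold, under other thresholds, windows, flanks and left-out libraries.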

Additional observations from a re-analysis of the deposited data

How the results depend on the processing

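Of 86 recomputed values, 72 stayed close to those reported and 14 moved. With a −log10 q of at least 5, H3K27me3 was found at 3 starts and in 4 windows, against 4.35% and 6.34% of all genes. Both marks were found at 0 starts and in 1 window (Lin28a), against 0.384% and 2.33% of all genes. The H3K27ac peak in that window lies at Dhdds. The median H3K27me3 coverage was 0%. The overlap of the marks, 14832 bases, was 9408 bases with a −log10 q of at least 2 and 0 with at least 5. Leaving out each library in turn, median coverage ranged from 4.41% to 6.44% for H3K27me3 and from 2.87% to 4.75% for H3K27ac, and the overlap ranged from 15164 to 29203 bases, highest without H3K27me3 replicate 2. Pairs of libraries, an alternative chosen after seeing the data, gave 22635 bases where no input is shared and 30401 bases where one is shared. Within 1 kb of a start, or of either gene end at Msi1 and Igf2bp1, the median H3K27ac fold was 4.76 and 2.11 in replicates 1 and 2. Over the window it was 9.53 and 6.66. Fewer peaks lie in the smaller window, and no H3K27ac peak lay at those gene ends. For the other moved values the cause was not tested. Leaving out peaks within 1 kb of an end or start of another gene, also chosen after seeing the data, gave 8.47 and 4.91 over the 10 genes, against 4.32 and 3.70 over all genes. No paired analysis was possible because no result comes from a test; the titles link H3K27me3 replicate 1 with H3K27ac replicate 2 by their input, and equal numbers are not linked. Depth is unknown, which limits what a missing peak shows.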
